A study of Mus musculus with 11 samples.

Results

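The genes described here are 41 factors that build ribosomes: subunits and initiation factors of RNA polymerase I, proteins of the nucleolus, and the processing and assembly factors of both ribosomal subunits. They were taken as a named list, chosen with earlier results of these data known. Shares of all genes set beside the list therefore describe it and do not test it. The genes were matched by symbol to probe sets that carry a single gene symbol, and each was represented by its brightest probe set. Of the 41 genes, 39 were measured in this way among 22180 genes on the array. The remaining genes, Fbl, the methyltransferase of box C/D small nucleolar ribonucleoproteins, and Tsr1, an assembly factor of the small subunit, lie on probe sets with several symbols and were not used.

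RNA was measured in 720 cells, a mouse T-cell acute lymphoblastic leukaemia line from a Tcf12+/- animal with a Tal1 transgene expressed from the Lck promoter, a genotype that all groups share. Cultures of this single line received 1 of 3 compounds, named in the labels as inhibitors of the Runt domain, the DNA-binding part of RUNX transcription factors, for 8 h. AI-9-54 was given at 50 µM (4 arrays), AI-8-45 at 100 µM (4 arrays) and AI-7-54 at 100 µM (3 arrays, replicates 1, 3 and 4). Cells given vehicle alone were not analysed here, and every difference is between 2 compounds. In comparisons with AI-9-54, compound and dose cannot be told apart. The labels do not state whether replicates were separate cultures, and p-values then measure only the spread between arrays.

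Ribosome production starts in the nucleolus, where RNA polymerase I copies the ribosomal DNA into a long precursor. Small nucleolar ribonucleoproteins (snoRNPs) guide the chemical modification of this RNA, the small subunit processome folds and cuts the part that becomes the small subunit, and a separate series of factors matures the large subunit before both are exported to the cytoplasm. The genes of these factors are known as a group that growing cells express together, and the transcription factor MYC, active in many T-cell leukaemias, is a textbook activator of them.

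T-cell markers were set against those of other lineages. The 8 T-cell markers had a median gene level of 11.10 after AI-9-54, 11.13 after AI-8-45 and 11.11 after AI-7-54 on the log2 scale, while B-lineage markers had medians of 6.20 after AI-9-54, 6.24 after AI-8-45 and 6.22 after AI-7-54, and myeloid markers 6.28 after AI-9-54, 6.36 after AI-8-45 and 6.35 after AI-7-54. Of the 2 erythroid markers Epor read 8.48 after AI-9-54, 8.62 after AI-8-45 and 8.56 after AI-7-54. Of the 7 stromal and endothelial markers, whose median was 6.89 in each group, Pecam1, an adhesion molecule that leukocytes also carry, read 11.23 after AI-9-54, 11.37 after AI-8-45 and 11.33 after AI-7-54. None of the B-lineage, myeloid, erythroid or stromal marker genes differed between compounds at an adjusted p under 0.05.

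Some T-cell markers did differ. Over all genes, 7.29% were lower (adjusted p under 0.05) for AI-9-54 minus AI-7-54 and 3.53% for AI-8-45 minus AI-7-54. For AI-9-54 minus AI-8-45 the share was 0.600%. Against AI-7-54, 3 of the 8 were lower after AI-9-54, namely the surface receptors Cd2 (-0.81, adjusted p 0.00162) and Cd5 (-0.60, adjusted p 0.0140) and the transcription factor Bcl11b (-0.40, adjusted p 0.000143). After AI-8-45, 1 of the 8 was lower than after AI-7-54, Cd5 (-0.69, adjusted p 0.0153), and Bcl11b was lower with AI-9-54 than with AI-8-45 (-0.41, adjusted p 0.000678). The mean of the 8 markers lay between 10.73 and 10.81 on the AI-9-54 arrays, 10.76 and 10.97 on the AI-8-45 arrays and 10.91 and 11.12 on the AI-7-54 arrays. Their part in the results below was not tested.

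Array medians lay between 6.61 and 6.68, any pair of arrays correlated at 0.9941 or more, and no measured ribosome factor averaged below the lowest array median in any group (group means 8.09 to 12.63). Replicates 1 and 2 tended to deviate together, as did replicates 3 and 4: between arrays of different groups, deviations from the group mean correlated at -0.02 to 0.49 within a set and -0.48 to 0.01 between sets. Values within the sets are therefore given beside the counts over all measured ribosome factors, but not for each role.

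After AI-8-45 and after AI-9-54, most of these genes were lower than after AI-7-54, and none was higher. At the matched dose of 100 µM, AI-8-45 gave lower levels than AI-7-54 for 30 of 39 genes (adjusted p under 0.05), against 3.53% of all genes called lower and 2.13% called higher. The median log2 difference was -0.38, where all genes had a median of 0.00. AI-9-54 gave lower levels than AI-7-54 for 34 of 39 genes, against 7.29% of all genes called lower and 6.87% higher, with a median of -0.49. The same 3 AI-7-54 arrays serve both comparisons, and 30 genes were lower in each. Because the list was chosen with earlier results of these data known, its contrast with all genes is a description. In these bulk cultures, a lower level in every cell and a smaller share of cells with a high level cannot be told apart.

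Averaged over the 39 genes, the arrays read 10.03, 10.12, 10.04 and 10.05 after AI-9-54, 10.21, 10.19, 10.11 and 10.19 after AI-8-45, and 10.52, 10.56 and 10.52 after AI-7-54. The AI-7-54 arrays were all above every other array, and the AI-8-45 arrays spanned a range whose lowest array, replicate 3, fell just below the highest AI-9-54 array, replicate 2. The median differences from AI-7-54 within replicates 3 and 4 were -0.55 for AI-9-54 and -0.43 for AI-8-45, against -0.43 for AI-9-54 and -0.31 for AI-8-45 within replicates 1 and 2, a set with a single AI-7-54 array. The test called 32 genes for AI-9-54 and 26 for AI-8-45 within replicates 3 and 4. The share of all genes called in that set alone is not given here, so these counts show nothing particular to the 39 genes. For replicates 1 and 2 only the median is given, because AI-7-54 has a single array there.

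**Figure D1:**
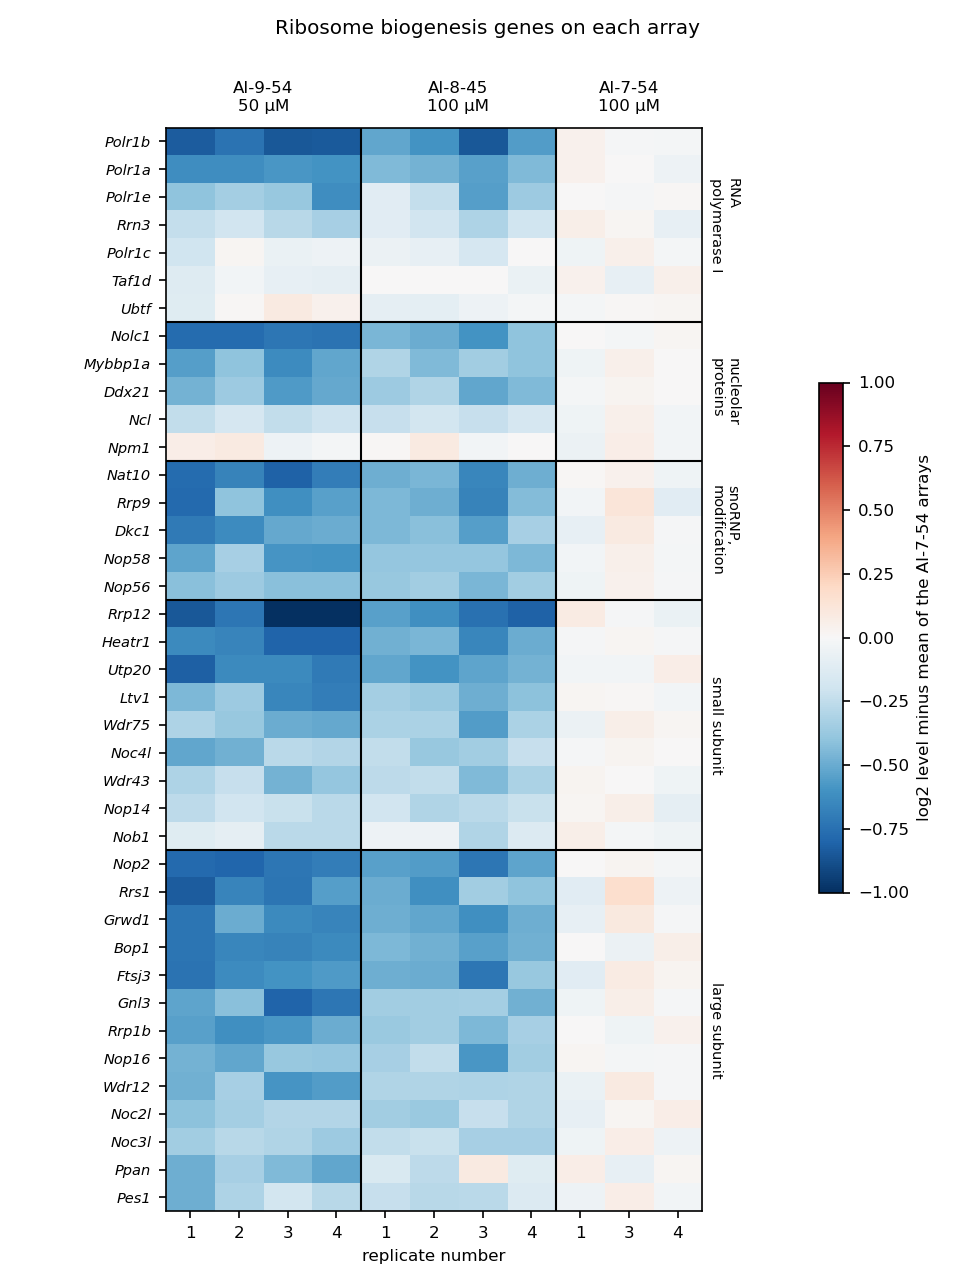
Log2 level of each of the 39 measured genes (rows, grouped by role) on each array (columns, grouped by compound), minus the gene's mean over the AI-7-54 arrays. Blue marks lower levels: most rows are blue on all AI-9-54 and AI-8-45 arrays, while the rows of Npm1, Ubtf, Taf1d and Polr1c stay pale.

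The 7 genes of RNA polymerase I and its factors split into genes that were lower and genes with no called difference. Against AI-7-54, 4 of the 7 were lower after AI-9-54 (median log2 difference -0.26), where 7.29% of all genes were. After AI-8-45 it was 2 of the 7 (median -0.20), where 3.53% of all genes were lower.

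Polr1b, which encodes a catalytic core subunit of the enzyme, read 9.20, 9.29, 9.18 and 9.19 after AI-9-54, 9.51, 9.43, 9.18 and 9.47 after AI-8-45, and 10.07, 10.02 and 10.01 after AI-7-54. All 8 arrays of AI-9-54 and AI-8-45 were well below the AI-7-54 arrays, and replicate 3 of AI-8-45 was as low as the AI-9-54 arrays. The log2 difference from AI-7-54 was -0.82 ± 0.07 (SE, adjusted p 1.24e-05) for AI-9-54, 1.76-fold lower, and -0.63 ± 0.07 (adjusted p 0.000279) for AI-8-45, 1.55-fold lower.

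Polr1a, the gene of the largest subunit, read 9.42, 9.42, 9.46 and 9.44 after AI-9-54, 9.60, 9.57, 9.50 and 9.60 after AI-8-45, and 10.08, 10.04 and 9.99 after AI-7-54. The 3 groups did not overlap. Its differences from AI-7-54 were -0.60 ± 0.04 (SE) for AI-9-54 and -0.47 ± 0.04 for AI-8-45, with an adjusted p of 3.05e-06 for AI-9-54 and 6.07e-05 for AI-8-45. Polr1e, whose product belongs to a pair of subunits attached to the core of the enzyme, read 8.63, 8.69, 8.65 and 8.41 after AI-9-54, 8.92, 8.79, 8.48 and 8.67 after AI-8-45, and 9.03, 9.02 and 9.04 after AI-7-54. Every array of the other compounds was below those of AI-7-54, with a wide spread after AI-8-45. The difference passed the test for AI-9-54 (-0.44 ± 0.09, adjusted p 0.00727) and not for AI-8-45 (-0.32 ± 0.09, adjusted p 0.0738, 95% interval -0.52 to -0.11). Rrn3, the initiation factor that recruits the polymerase to the promoter, had the same pattern of calls at -0.26 (adjusted p 0.00787) for AI-9-54 and -0.20 (adjusted p 0.0619) for AI-8-45. The AI-8-45 differences of both genes passed the test without replicate 1 of AI-8-45, with the replicate number as a block (adjusted p 0.0460 for Polr1e and 0.0407 for Rrn3) and with the replicate set as a factor (adjusted p 0.0151 for Polr1e and 0.0108 for Rrn3).

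The other 3 genes of this role were not called. Ubtf, which encodes the factor that coats active ribosomal DNA, read 11.18, 11.31, 11.39 and 11.34 after AI-9-54, 11.21, 11.20, 11.25 and 11.28 after AI-8-45, and 11.28, 11.31 and 11.32 after AI-7-54. The groups overlapped, and the 95% intervals of the differences from AI-7-54 were -0.11 to 0.11 for AI-9-54 and -0.17 to 0.04 for AI-8-45. Polr1c, a subunit gene shared with RNA polymerase III, read 10.02, 10.24, 10.15 and 10.17 after AI-9-54, 10.16, 10.14, 10.05 and 10.22 after AI-8-45, and 10.18, 10.27 and 10.20 after AI-7-54. Here too the groups overlapped, and the interval was -0.20 to 0.06 for AI-9-54 and for AI-8-45.

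Taf1d encodes a subunit of the promoter selectivity factor of RNA polymerase I, and its introns host small nucleolar RNAs. Its brightest probe set read 12.50, 12.60, 12.55 and 12.54 after AI-9-54, 12.63, 12.63, 12.63 and 12.56 after AI-8-45, and 12.67, 12.55 and 12.68 after AI-7-54. These arrays overlapped between groups (differences from AI-7-54 of -0.08 for AI-9-54, interval -0.18 to 0.01, and -0.02 for AI-8-45, interval -0.12 to 0.08). Its 11 probe sets disagreed, with differences between AI-9-54 and AI-7-54 from -0.79 to 0.06. Of the 11, 10 were below 0 and 7 were called lower for AI-9-54, and for AI-8-45 10 were below 0 and 1 was called lower (adjusted over all probe sets). Called probe sets with mean levels of 12.17, 12.17 and 11.93 each gave -0.31 for AI-9-54, so the 7 may not be separate readings. The mean over the probe sets of Taf1d was lower with AI-9-54 than with AI-7-54 (-0.32, adjusted p 0.000937). Whether each probe set reads the messenger RNA or a hosted small nucleolar RNA was not tested.

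Of the 5 abundant nucleolar proteins, 4 had lower transcripts after each of AI-9-54 and AI-8-45 than after AI-7-54. The shares of all genes called lower were 7.29% for AI-9-54 and 3.53% for AI-8-45. The median of the role was -0.48 for AI-9-54 and -0.37 for AI-8-45. Nolc1, a chaperone that brings snoRNPs together in the nucleolus, read 9.31, 9.31, 9.36 and 9.34 after AI-9-54, 9.62, 9.58, 9.48 and 9.68 after AI-8-45, and 10.08, 10.06 and 10.10 after AI-7-54. The compounds formed 3 separate levels. The differences from AI-7-54 were -0.75 ± 0.05 (SE, adjusted p 1.40e-06) for AI-9-54 and -0.49 ± 0.05 (adjusted p 0.000114) for AI-8-45.

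Mybbp1a, a nucleolar MYB-binding protein, read 11.07, 11.22, 10.99 and 11.10 after AI-9-54, 11.32, 11.18, 11.27 and 11.22 after AI-8-45, and 11.58, 11.67 and 11.62 after AI-7-54. The AI-7-54 arrays lay above all others, which overlapped each other. The differences were -0.53 for AI-9-54 (adjusted p 6.71e-05) and -0.37 for AI-8-45 (adjusted p 0.00244). Ddx21, an RNA helicase that links ribosomal RNA transcription with processing, read 11.03, 11.14, 10.93 and 10.99 after AI-9-54, 11.14, 11.20, 10.98 and 11.06 after AI-8-45, and 11.48, 11.53 and 11.50 after AI-7-54. Both groups again lay below AI-7-54 on every array while overlapping each other, at -0.48 ± 0.06 (SE) for AI-9-54 and -0.41 ± 0.06 for AI-8-45. The AI-8-45 call of Ddx21 was lost with the mean over its probe sets.

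Ncl and Npm1, the genes of nucleolin and nucleophosmin, had the smallest differences in this role. Ncl read 11.80, 11.88, 11.80 and 11.84 after AI-9-54, 11.82, 11.87, 11.82 and 11.88 after AI-8-45, and 12.01, 12.10 and 12.02 after AI-7-54. Its shift was small beside those above but separated AI-7-54 from all other arrays, with differences of -0.21 ± 0.04 (SE, adjusted p 0.00475) for AI-9-54 and -0.20 ± 0.04 (adjusted p 0.0174) for AI-8-45. The AI-8-45 call of Ncl was lost without replicate 3 or replicate 4 of AI-7-54.

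Npm1 read 12.55, 12.57, 12.43 and 12.46 after AI-9-54, 12.49, 12.57, 12.45 and 12.48 after AI-8-45, and 12.42, 12.55 and 12.45 after AI-7-54. The groups overlapped fully, with differences from AI-7-54 of 0.02 for AI-9-54 (interval -0.09 to 0.14) and 0.03 for AI-8-45 (interval -0.09 to 0.14). A dimmer probe set of the same gene, with a mean level of 8.92 against 12.49, gave -0.33 for AI-9-54 minus AI-7-54 (adjusted p 0.00753 over all probe sets) and -0.19 for AI-8-45 minus AI-7-54 (adjusted p 0.166). Npm1 has processed pseudogenes of near-identical sequence in mouse, and which copies each probe set reads was not tested.

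All 5 measured genes of snoRNP proteins and ribosomal RNA modification were lower after AI-9-54 (7.29% of all genes) and after AI-8-45 (3.53% of all genes). Their median was -0.58 for AI-9-54 and -0.44 for AI-8-45. Nat10, the acetyltransferase that modifies cytidines in the small subunit RNA, read 9.95, 10.05, 9.91 and 10.03 after AI-9-54, 10.23, 10.26, 10.07 and 10.23 after AI-8-45, and 10.73, 10.76 and 10.68 after AI-7-54. Its 3 groups were fully separated, with AI-8-45 in the middle (differences from AI-7-54 of -0.74 ± 0.05, SE, for AI-9-54, adjusted p 4.65e-06, and -0.53 ± 0.05 for AI-8-45, adjusted p 0.000192).

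Dkc1, the pseudouridine synthase of box H/ACA particles, read 10.61, 10.69, 10.81 and 10.82 after AI-9-54, 10.87, 10.90, 10.77 and 10.99 after AI-8-45, and 11.24, 11.41 and 11.31 after AI-7-54. Rrp9, a protein of the snoRNP that starts small subunit processing, read 8.58, 8.96, 8.75 and 8.82 after AI-9-54, 8.91, 8.87, 8.69 and 8.93 after AI-8-45, and 9.33, 9.48 and 9.25 after AI-7-54. In both genes the AI-9-54 and AI-8-45 arrays overlapped and all lay below AI-7-54. For Dkc1 the difference from AI-7-54 was -0.59 with AI-9-54 (adjusted p 0.000113) and -0.44 with AI-8-45 (adjusted p 0.00268). For Rrp9 it was -0.58 with AI-9-54 (adjusted p 0.000916) and -0.51 with AI-8-45 (adjusted p 0.00580). The core box C/D proteins completed the set, with Nop58 at -0.51 for AI-9-54 and -0.40 for AI-8-45, and Nop56 at -0.40 for AI-9-54 and -0.38 for AI-8-45. Nop56, whose introns also host small nucleolar RNAs, has dimmer probe sets too. The one at a mean level of 8.96 gave -0.67 for AI-9-54 (adjusted p 0.000126 over all probe sets) and -0.40 for AI-8-45 (adjusted p 0.0105), and the one at 7.52 gave -0.06 for AI-9-54 and -0.01 for AI-8-45.

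**Figure D2:**
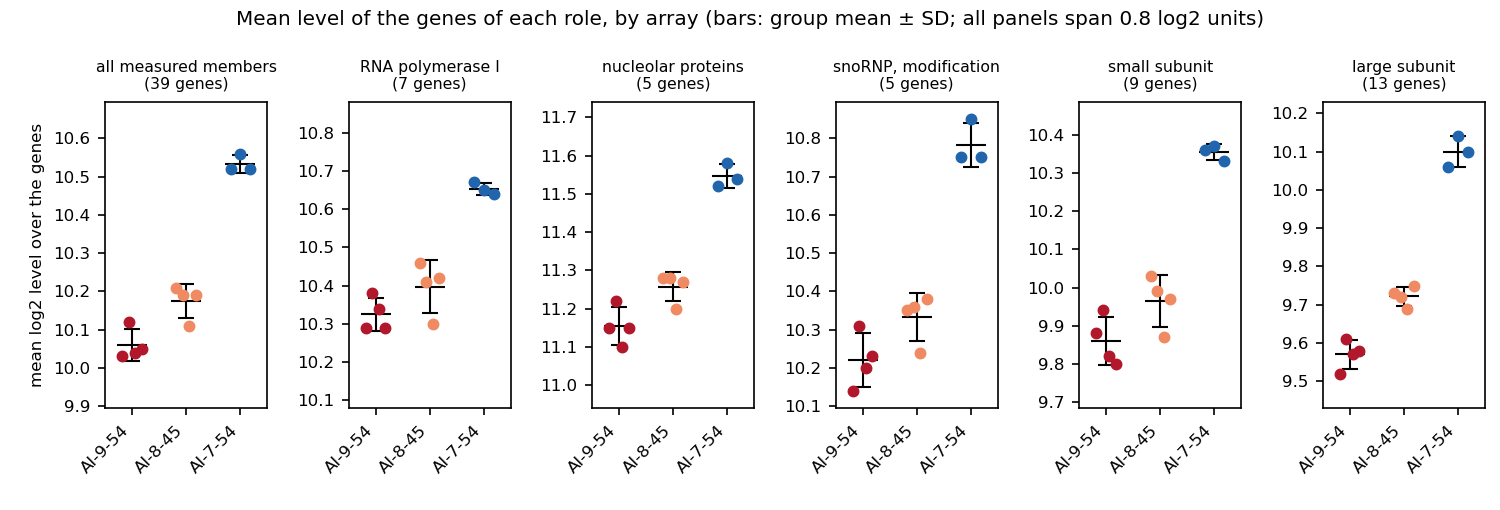
Mean log2 level over the genes of each role on each array (points), with the group mean and SD (bars); each panel spans 0.8 log2 units on its own axis. In every panel the 3 AI-7-54 arrays lie above all 8 other arrays, with group means of 10.06 after AI-9-54, 10.17 after AI-8-45 and 10.53 after AI-7-54 for all 39 genes.

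On the small subunit side, 8 of 9 measured genes were lower after AI-9-54 (median -0.43), against 7.29% of all genes. After AI-8-45 it was also 8 of 9 (median -0.38), against 3.53% of all genes. Rrp12, which takes part in the export and late maturation of pre-ribosomes, read 8.15, 8.28, 8.00 and 7.95 after AI-9-54, 8.46, 8.39, 8.25 and 8.19 after AI-8-45, and 9.08, 8.99 and 8.93 after AI-7-54. It had the largest difference of the 39 genes in both comparisons, at -0.91 ± 0.09 (SE, 1.87-fold lower, adjusted p 2.52e-05) for AI-9-54 and -0.68 ± 0.09 (1.60-fold lower, adjusted p 0.000684) for AI-8-45. The AI-9-54 and AI-8-45 arrays overlapped, and in both compounds replicates 3 and 4 were lower than replicates 1 and 2. In AI-7-54 too, replicates 3 and 4 read below replicate 1.

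Heatr1 and Utp20 encode large scaffold proteins of the small subunit processome. Heatr1 read 9.89, 9.87, 9.73 and 9.73 after AI-9-54, 10.05, 10.07, 9.88 and 10.03 after AI-8-45, and 10.52, 10.55 and 10.52 after AI-7-54. Utp20 read 8.84, 9.02, 9.02 and 8.95 after AI-9-54, 9.14, 9.06, 9.13 and 9.19 after AI-8-45, and 9.63, 9.63 and 9.73 after AI-7-54. In Utp20 the 3 groups were separate, and in Heatr1 replicate 3 of AI-8-45 reached into the AI-9-54 range. Heatr1 differed from AI-7-54 by -0.73 ± 0.06 (SE) with AI-9-54 and -0.52 ± 0.06 with AI-8-45, and Utp20 by -0.70 ± 0.05 with AI-9-54 and -0.53 ± 0.05 with AI-8-45.

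Nob1, the nuclease that makes the final cut at the 3′ end of the small subunit RNA, was the gene of this side that was not called. It read 10.20, 10.23, 10.05 and 10.05 after AI-9-54, 10.27, 10.27, 10.02 and 10.18 after AI-8-45, and 10.38, 10.30 and 10.28 after AI-7-54. Every array of the other compounds was below AI-7-54, but by little, and neither the difference of -0.19 for AI-9-54 (adjusted p 0.0964, interval -0.34 to -0.04) nor that of -0.13 for AI-8-45 (adjusted p 0.365, interval -0.28 to 0.01) passed the test. Other models called Nob1 lower: for AI-9-54 with the replicate number as a block (adjusted p 0.0144), with the replicate set as a factor (adjusted p 0.00555) and without replicate 3 of AI-8-45 (adjusted p 0.0476), and for AI-8-45 with the replicate set as a factor (adjusted p 0.0492). The remaining genes of this side, the processome components Wdr43, Wdr75, Nop14 and Noc4l and the late assembly factor Ltv1, were lower by differences of -0.54 to -0.23 for AI-9-54 and -0.40 to -0.24 for AI-8-45.

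On the large subunit side, all 13 genes were lower after AI-9-54 (median -0.56), against 7.29% of all genes. After AI-8-45 it was 11 of 13 (median -0.38), against 3.53% of all genes. Nop2, a methyltransferase of the large subunit RNA, read 10.46, 10.45, 10.52 and 10.55 after AI-9-54, 10.70, 10.68, 10.52 and 10.71 after AI-8-45, and 11.24, 11.27 and 11.22 after AI-7-54. Replicate 3 of AI-8-45 fell within the AI-9-54 range and the other AI-8-45 arrays lay between the groups. The difference from AI-7-54 was -0.74 ± 0.05 (SE, 1.68-fold lower, adjusted p 3.30e-06) for AI-9-54 and -0.59 ± 0.05 (1.51-fold lower, adjusted p 6.07e-05) for AI-8-45.

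Grwd1, a chaperone of a ribosomal protein, read 8.51, 8.74, 8.60 and 8.58 after AI-9-54, 8.75, 8.72, 8.63 and 8.75 after AI-8-45, and 9.16, 9.34 and 9.23 after AI-7-54. Rrs1, an assembly factor of early large subunits, read 8.27, 8.44, 8.37 and 8.55 after AI-9-54, 8.60, 8.49, 8.75 and 8.70 after AI-8-45, and 8.99, 9.27 and 9.05 after AI-7-54. For both genes the AI-9-54 and AI-8-45 arrays overlapped below those of AI-7-54. Grwd1 differed by -0.64 for AI-9-54 (adjusted p 3.03e-05) and -0.53 for AI-8-45 (adjusted p 0.000367). Rrs1 differed by -0.70 for AI-9-54 (adjusted p 0.000174) and -0.47 for AI-8-45 (adjusted p 0.00682).

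The PeBoW complex of Pes1, Bop1 and Wdr12 is needed to process the large subunit RNA. Bop1 read 9.21, 9.29, 9.27 and 9.30 after AI-9-54, 9.49, 9.46, 9.40 and 9.46 after AI-8-45, and 9.94, 9.88 and 10.00 after AI-7-54, in 3 separate groups. Its difference from AI-7-54 was -0.67 ± 0.04 (SE) for AI-9-54 and -0.49 ± 0.04 for AI-8-45. Wdr12 was lower in both comparisons, with differences of -0.49 for AI-9-54 and -0.31 for AI-8-45. Pes1 was lower after AI-9-54 (-0.31, adjusted p 0.00813), and its difference for AI-8-45 was -0.23 (adjusted p 0.0794, interval -0.37 to -0.08). That difference passed the test under 5 of 23 alternatives, among them the replicate set as a factor (adjusted p 0.0462).

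Ppan, an early assembly factor of the large subunit, was lower after AI-9-54 and was not called for AI-8-45. It read 10.26, 10.42, 10.31 and 10.23 after AI-9-54, 10.60, 10.49, 10.84 and 10.63 after AI-8-45, and 10.82, 10.67 and 10.77 after AI-7-54. AI-9-54 lay below both other groups, while replicate 3 of AI-8-45 was the highest of all 11 arrays. The difference from AI-7-54 was -0.44 ± 0.08 (SE, adjusted p 0.00184) for AI-9-54 and -0.11 ± 0.08 (adjusted p 0.561, interval -0.27 to 0.06) for AI-8-45. A dimmer probe set of Ppan was lower in both, at -0.58 for AI-9-54 (adjusted p 1.22e-05 over all probe sets) and -0.35 for AI-8-45 (adjusted p 0.00135), and with the mean over both probe sets the AI-8-45 difference passed the test (-0.23, adjusted p 0.0334).

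The other large subunit genes were lower in both comparisons. Ftsj3, a nucleolar methyltransferase, differed by -0.63 for AI-9-54 and -0.52 for AI-8-45, and Gnl3, the GTPase nucleostemin, by -0.62 for AI-9-54 and -0.38 for AI-8-45. The nucleolar factors Rrp1b, Nop16, Noc2l and Noc3l differed by -0.56 to -0.32 for AI-9-54 and by -0.38 to -0.28 for AI-8-45. The AI-8-45 calls of Ncl, Gnl3, Wdr12, Wdr43, Wdr75, Nop14 and Noc4l were lost without replicate 3 of AI-7-54, and the 39 genes then held 23 calls in place of 30.

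**Figure D3:**
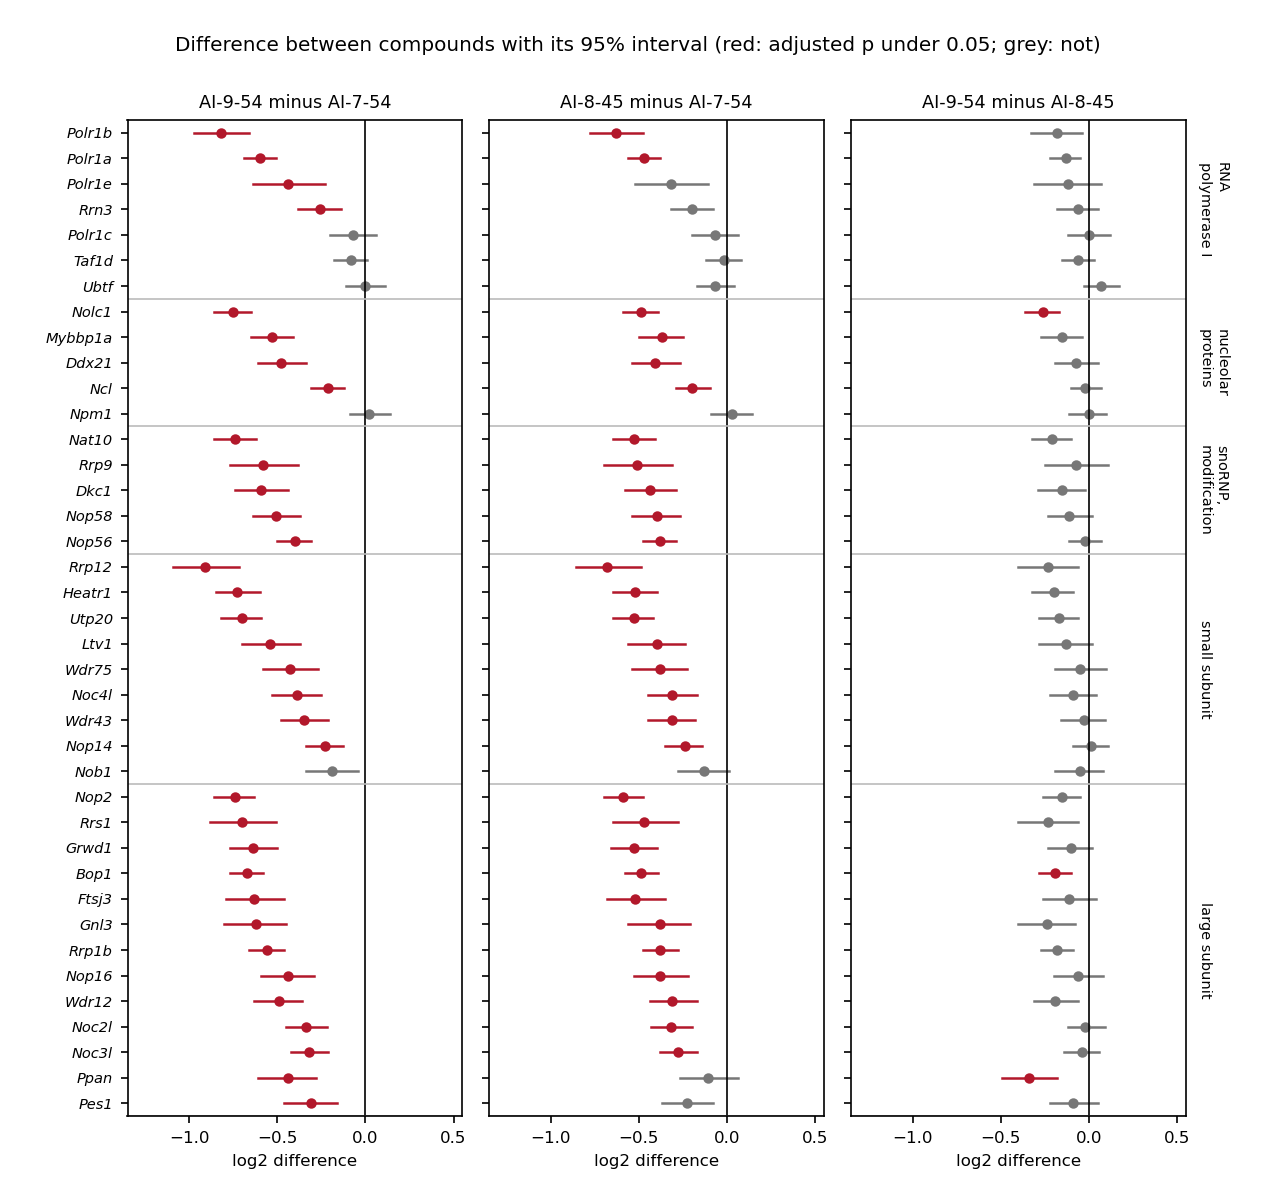
Log2 difference of each gene with its 95% interval for AI-9-54 minus AI-7-54 (left), AI-8-45 minus AI-7-54 (middle) and AI-9-54 minus AI-8-45 (right); red marks an adjusted p under 0.05. The points lie mostly between -0.91 and -0.20 on the left and in the middle, and close to 0 on the right, where Nolc1, Bop1 and Ppan are red.

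The levels after AI-9-54 at 50 µM and AI-8-45 at 100 µM were compared directly. Of the 39 genes 3 were called, all lower with AI-9-54, against 0.600% of all genes called lower and 0.708% higher, and the median log2 difference was -0.11. Ppan differed by -0.34 ± 0.07 (SE, adjusted p 0.0394), Nolc1 by -0.26 ± 0.04 (adjusted p 0.0144) and Bop1 by -0.19 ± 0.04 (adjusted p 0.0429). In each of the 3 genes all AI-9-54 arrays lay below all AI-8-45 arrays. Over the other 36 genes, 95% intervals reached from -0.40 at the lowest bound to 0.17 at the highest, so differences within these bounds are not shown to be absent.

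The 3 calls depended on single arrays and on the model. Nolc1 lost its call in 3 of 23 alternatives, Ppan in 14 and Bop1 in 17, and Bop1 lost it whichever of the 11 arrays was left out. Leaving out 1 array at a time gave 0 to 3 calls, and no such model called all of Nolc1, Bop1 and Ppan. The counts of 3 came with Polr1b and Nat10 called without replicate 3 of AI-8-45, and with Wdr12 called without replicate 2 of AI-9-54. The count was 0 without replicate 1 of AI-8-45 and 1 without replicate 4 of AI-8-45, without replicate 1, 3 or 4 of AI-9-54, or without any single AI-7-54 array, which enters only through the shared estimate of spread. With the replicate number as a block, the calls were Nolc1 and Rrp12, while all genes called lower rose from 133 to 255. With the replicate set (1 and 2, or 3 and 4) in the model, 7 of the 39 genes were lower after AI-9-54, the 3 above and Nat10, Heatr1, Rrp12 and Rrp1b. Over the alternatives other than leaving out 1 array, all genes called lower reached 390. The 7 calls are therefore not read as particular to these genes. The median difference was -0.12 in replicates 1 and 2 alone and -0.07 in replicates 3 and 4 alone, and no gene was called within either set.

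Groups that do not overlap give a count that uses no model. After AI-9-54, 35 of 39 genes had every array below every AI-7-54 array, against 12.0% of all genes. After AI-8-45, 34 of 39 did, against 9.07% of all genes. Between AI-9-54 and AI-8-45, 8 of 39 genes were separated with AI-9-54 lower, against 2.84%, among them Polr1a, Nat10 and Utp20.

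Other genes of the same process, kept as 5 lists of 139 genes that share no gene with the list above, were lower too, with medians nearer 0. These lists were chosen with earlier results of these data known and are read on the same arrays, so they are not separate support. Of 131 measured, AI-9-54 gave 85 lower than AI-7-54 (64.9%, median -0.27) and AI-8-45 gave 62 (47.3%, median -0.23), and none was higher in either. The shares of all genes called lower were 7.29% for AI-9-54 and 3.53% for AI-8-45. Within replicates 3 and 4 the counts were 61 for AI-9-54 and 32 for AI-8-45, and the share of all genes in that set alone is not given here. The AI-8-45 count was 35 without replicate 3 and 38 without replicate 4 of AI-7-54.

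Among other small subunit factors, 26 of 42 were lower after AI-9-54 and 21 of 42 after AI-8-45. For this and the lists that follow, the shares of all genes called lower were 7.29% for AI-9-54 and 3.53% for AI-8-45. The largest differences were those of the nucleolar regulator Lyar, at -0.75 for AI-9-54 and -0.62 for AI-8-45, and of the assembly factor Bysl, at -0.74 for AI-9-54 and -0.65 for AI-8-45. Of 47 other large subunit factors, 34 were lower after AI-9-54 and 26 after AI-8-45, with Rrp15 at -0.68 for AI-9-54 and -0.50 for AI-8-45, Ccdc86 at -0.57 for AI-9-54 and -0.43 for AI-8-45, and Wdr18 at -0.51 for AI-9-54 and -0.48 for AI-8-45. Of 15 other snoRNP proteins and assembly genes, 13 were lower after AI-9-54 and 8 after AI-8-45, led by Nhp2, a core protein of box H/ACA particles, at -0.64 for AI-9-54 and -0.47 for AI-8-45. Tcof1, the nucleolar protein treacle, was at -0.53 for AI-9-54 and -0.31 for AI-8-45, and Gar1, another core protein of box H/ACA particles, at -0.49 for AI-9-54 and -0.45 for AI-8-45. Of 14 genes of the RNA exosome and nuclear trimming, 8 were lower after AI-9-54 and 4 after AI-8-45, with the exosome cap subunits Exosc1, at -0.46 for AI-9-54 and -0.32 for AI-8-45, and Exosc2, at -0.44 for AI-9-54 and -0.39 for AI-8-45, and the nuclease Dis3, at -0.39 for AI-9-54 and -0.33 for AI-8-45.

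Polymerase genes outside the list had some calls too. The shares of all genes called lower were 7.29% for AI-9-54 and 3.53% for AI-8-45. Of 13 other RNA polymerase I genes, 4 were lower after AI-9-54 (median -0.15) and 3 after AI-8-45 (median -0.06). Polr2e, Polr2f and Polr2l encode subunits shared by all 3 nuclear polymerases, and apart from these only Cd3eap was called. Polr2e was lower in both, at -0.38 for AI-9-54 and -0.30 for AI-8-45. Polr2f was lower after AI-9-54 (-0.50), with -0.35 for AI-8-45 (adjusted p 0.0798). Polr2l was lower in both, at -0.45 for AI-9-54 and -0.47 for AI-8-45, and so was Cd3eap, an older symbol for the subunit that pairs with that of Polr1e, at -0.28 for AI-9-54 and -0.33 for AI-8-45. Of 18 genes of RNA polymerase III, which makes transfer RNA, 4 were lower after AI-9-54 and 3 after AI-8-45, with the subunit genes Polr3d at -0.50 for AI-9-54 and -0.44 for AI-8-45, and Polr3e at -0.44 for AI-9-54 and -0.42 for AI-8-45. In the direct comparison, 4 of the 131 other factors were lower with AI-9-54 than with AI-8-45 (3.05%), against 0.600% of all genes. They were Urb2 (-0.26), Tcof1 (-0.22), Snu13 (-0.21) and Nhp2 (-0.17). Leaving out 1 array at a time gave 0 to 3 such calls, with 0 without replicate 1 of AI-8-45.

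Genes of the cytosolic ribosomal proteins, the products that these factors assemble, had medians at or near 0 by their brightest probe sets. As with Npm1, which copies of a gene each probe set reads was not tested, so these medians may not be those of the genes themselves. Of 60 measured of 80 listed, AI-9-54 gave 12 lower than AI-7-54 (20.0%, median -0.05) and AI-8-45 gave 4 (6.67%, median 0.00), and none was higher. Over all genes, 7.29% were called lower and 6.87% higher for AI-9-54, and 3.53% lower and 2.13% higher for AI-8-45. The 4 lower in both were Rps27l, at -0.54 for AI-9-54 and -0.27 for AI-8-45, Rpl5, at -0.45 for AI-9-54 and -0.25 for AI-8-45, Rps14, at -0.42 for AI-9-54 and -0.31 for AI-8-45, and Rpl30, at -0.25 for AI-9-54 and -0.35 for AI-8-45.

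**Figure D4:**
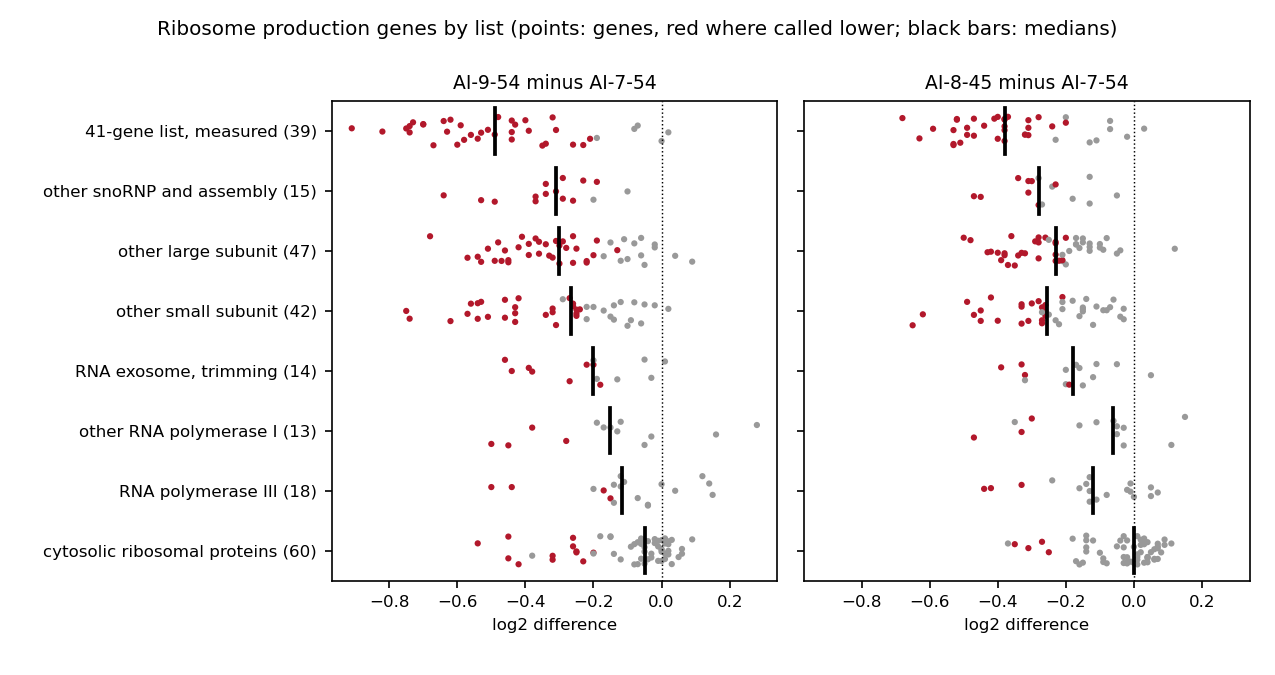
Log2 difference of every measured gene (points, number of genes in brackets) in the list of ribosome biogenesis factors and in related lists, for AI-9-54 minus AI-7-54 (left) and AI-8-45 minus AI-7-54 (right); red points were called lower and black bars are medians. The medians of the 39 genes lie at -0.49 on the left and -0.38 on the right, and those of the ribosomal proteins at -0.05 on the left and 0.00 on the right.

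Of 9 measured genes of MYC and its direct partners, AI-9-54 gave lower levels than AI-7-54 for 2 and a higher one for 1 (22.2% lower, list median 0.06), and AI-8-45 gave a lower level for 1 and a higher one for 1 (11.1% lower, list median 0.07). The shares of all genes called lower were 7.29% for AI-9-54 and 3.53% for AI-8-45. Myc was lower after AI-9-54 and was not called for AI-8-45, both against AI-7-54. Its probe set read 11.67, 11.69, 11.26 and 11.32 after AI-9-54, 12.05, 11.93, 11.89 and 11.84 after AI-8-45, and 12.15, 11.91 and 11.96 after AI-7-54. AI-9-54 lay below both other groups on every array, and AI-8-45 overlapped AI-7-54. The difference from AI-7-54 was -0.52 ± 0.11 (SE, adjusted p 0.00573) for AI-9-54 and -0.08 ± 0.11 (adjusted p 0.832, interval -0.31 to 0.16) for AI-8-45, and AI-9-54 minus AI-8-45 was -0.44 ± 0.10 (adjusted p 0.0519). Max, the partner with which MYC binds DNA, was lower in both comparisons, with differences of -0.28 for AI-9-54 (adjusted p 0.00541) and -0.21 for AI-8-45 (adjusted p 0.0491). Mxd4, which encodes a repressor that competes for MAX, was higher in both, by 0.37 for AI-9-54 (adjusted p 0.00555) and 0.34 for AI-8-45 (adjusted p 0.0213).

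The DNA before the start sites was read because so many of these genes differed in the same direction. Windows from 250 bases before to 50 bases after the start, taken from RefSeq on build GRCm38.p6, were held for 35 of the 39 genes (44 windows). The motif CACGTG, the E-box core to which MYC and MAX bind, reads the same on both strands and occurred in windows of 8 of 35 genes (22.9%), against 9.4% of protein-coding genes on the array and 8.1% of all genes with a window. It occurred in 18.2% of the other ribosome biogenesis genes and in 8.5% of the ribosomal protein genes. The Runt domain core TGTGGT, searched on both strands (ACCACA), occurred in 4 of 35 genes (11.4%), against 16.5% of protein-coding genes. The median GC content was 59.0% for the windows of the 35 genes and 57.3% for those of protein-coding genes.

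The windows of 3 strongly lowered genes that hold the E-box core, and of Heatr1, which holds the Runt core, are given to show where these letters lie, with the motif in capitals. Each runs 5′ to 3′ on the gene's own strand. They are at chr6:125131633-125131932 (plus strand) for Nop2, chr10:88826765-88827064 (minus strand) for Utp20, chr7:45830740-45831039 (minus strand) for Grwd1 and chr13:12395125-12395424 (plus strand) for Heatr1.
Nop2: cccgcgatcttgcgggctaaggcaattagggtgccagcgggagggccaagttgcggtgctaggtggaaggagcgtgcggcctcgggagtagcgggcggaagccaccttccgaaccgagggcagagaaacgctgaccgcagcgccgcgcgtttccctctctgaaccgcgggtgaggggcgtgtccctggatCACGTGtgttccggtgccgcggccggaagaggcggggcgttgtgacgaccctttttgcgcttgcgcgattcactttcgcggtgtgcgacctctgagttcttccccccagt
Utp20: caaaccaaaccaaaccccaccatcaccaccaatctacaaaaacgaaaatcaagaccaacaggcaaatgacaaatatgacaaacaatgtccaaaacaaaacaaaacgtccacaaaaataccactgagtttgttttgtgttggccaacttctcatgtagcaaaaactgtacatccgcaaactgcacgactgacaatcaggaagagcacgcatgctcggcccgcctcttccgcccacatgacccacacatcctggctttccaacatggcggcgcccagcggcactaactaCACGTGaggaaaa
Grwd1: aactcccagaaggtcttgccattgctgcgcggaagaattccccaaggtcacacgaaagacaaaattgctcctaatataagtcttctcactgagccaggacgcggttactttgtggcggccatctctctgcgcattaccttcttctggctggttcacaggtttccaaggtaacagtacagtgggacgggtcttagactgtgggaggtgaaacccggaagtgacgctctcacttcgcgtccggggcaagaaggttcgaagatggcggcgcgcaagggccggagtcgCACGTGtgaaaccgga
Heatr1: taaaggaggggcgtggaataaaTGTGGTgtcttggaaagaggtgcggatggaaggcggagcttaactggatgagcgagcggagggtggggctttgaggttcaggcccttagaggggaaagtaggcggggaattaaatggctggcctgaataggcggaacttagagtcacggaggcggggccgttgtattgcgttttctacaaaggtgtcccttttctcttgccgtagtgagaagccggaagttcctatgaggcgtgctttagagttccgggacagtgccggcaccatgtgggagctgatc
In Nop2 the E-box core starts at position -60 from the start site, and in Utp20 and Grwd1 it starts after it, at positions 38 and 35. In Heatr1 the Runt core starts at position -228. No window of these 4 holds both motifs, and a match is a description of letters, not of binding.

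Genes with and without the E-box core were set side by side. The 8 genes whose window held it had 8 calls and a median of -0.54 for AI-9-54 minus AI-7-54, and 6 calls and a median of -0.39 for AI-8-45 minus AI-7-54. The 27 genes whose window lacked it had 23 calls and a median of -0.44 for AI-9-54, and 21 calls and a median of -0.38 for AI-8-45. Whether the 2 sets differ was not tested.

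Several probe sets were present for 6 of the 39 genes, and they bear on what is called for those genes. Both probe sets of Rrs1 and of Ddx21 had negative differences in both comparisons. For Taf1d, Npm1 and Ppan the brightest probe set gave a smaller difference than most or all of the others.

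**Figure D5:**
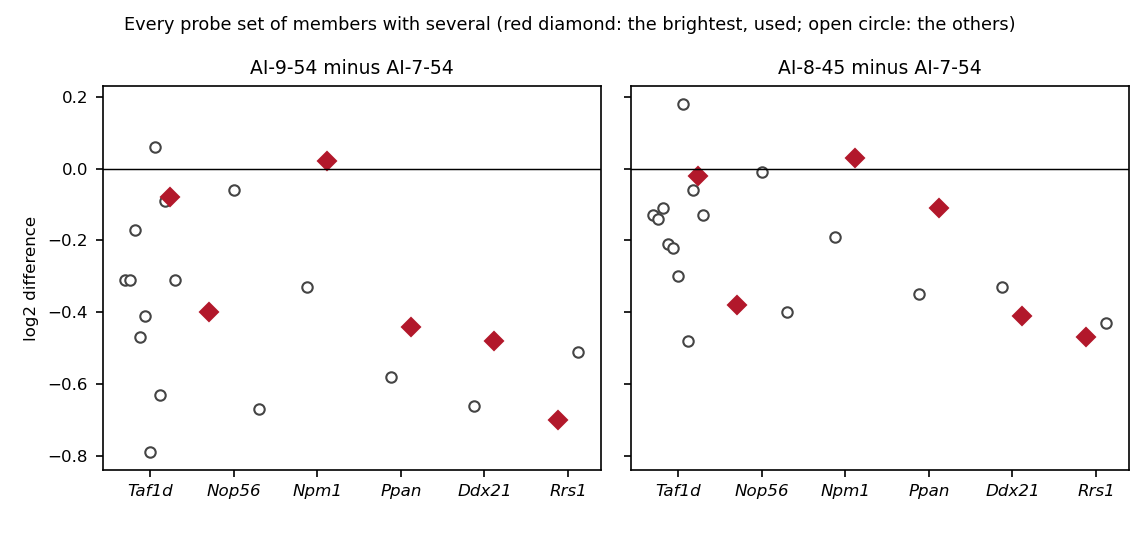
Log2 difference of every probe set of the 6 genes that have several, for AI-9-54 minus AI-7-54 (left) and AI-8-45 minus AI-7-54 (right); red diamonds are the brightest probe sets, which represent the gene, and open circles the others. For Npm1 the diamond lies at 0.02 on the left and 0.03 on the right, and the circle at -0.33 on the left and -0.19 on the right.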

How the data were processed

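Total RNA of the 720 line was amplified, labelled with biotin and hybridised to whole-transcript arrays, per the labels' protocols. The deposited table holds 1 log2 value per probe set and array, made with RMA and Partek 6.6, the tools listed in the submitters' processing notes. The log2 scale was read from the values (3.23 to 13.8), and the genome build of the authors' annotation is not given in the sources used here. The table has 41345 probe sets, to which the platform annotation gives a single symbol in 23521 cases, several in 1814 and none used here in 16010. Of the 23521, 23328 were matched to GRCm38.p6 genes through their identifiers. The brightest probe set over all arrays stood for each of 22180 genes, and dim genes were kept. Values are relative signals, and each array's overall level was set by the authors' normalization, so a change in total RNA per cell would not show.

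All 3 comparisons came from 1 limma model (lmFit, contrasts.fit and eBayes of limma 3.58.1, run under R 4.3.3) on 11 arrays, with 8 residual degrees of freedom and a prior of 4.14. Tests were two-sided, the Benjamini-Hochberg adjustment covered the 22180 genes of each comparison, and called means an adjusted p under 0.05. The method was tested on simulated data. It recovered 34% to 54% of differences of 0.25 and 86% to 90% of those of 0.5, depending on the comparison. Of its calls, 1.23% to 7.43% were false. The simulated noise was independent between arrays, so it lacked the shared deviations of the replicate sets. The genes and the lists they are set beside were chosen with earlier results of these data known.

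Values on every array are given for the 3 genes of each role with the largest mean difference from AI-7-54, for genes called in AI-9-54 minus AI-8-45 and for the 6 with the smallest difference, 23 in all. In each other list the 2 largest called differences of each direction and comparison are named, and Myc always. The number of arrays limits the precision. There were 23 alternatives: 2 other scalings, a filter on dim genes, the mean over probe sets, every probe set, an intensity trend, weights per array, a block for the replicate number, the replicate set as a factor, the compared groups alone, each replicate set alone, and each of the 11 arrays left out. Plots used Python 3.11.15 and matplotlib 3.10.9.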

Additional observations from a re-analysis of the deposited data

Results flagged for a closer look

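In 9 of 80 groups of 4 arrays, 1 array lay apart from the other 3 by most of the group's whole range (Dixon's test), where chance gives about 1 in 20 groups. After AI-9-54, replicate 2 was the high array each time: the mean of the 39 genes was 10.12 (others 10.03 to 10.05), Polr1b was 9.29 (others 9.18 to 9.20) and Nop56 was 11.33 (others 11.27). After AI-8-45, replicate 3 was the low array for Wdr75 at 10.67 (others 10.91), for Nop2 at 10.52 (others 10.68 to 10.71) and for Wdr12 at 9.49 (others 9.50). Replicate 4 of AI-8-45 was the low array for Taf1d at 12.56 (others 12.63), Nop58 at 10.38 (others 10.44) and Gnl3 at 10.82 (others 10.95 to 10.96). The cause was not tested.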

How the results depend on the processing

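For AI-9-54 minus AI-7-54, 13 of the 34 called genes kept their call in all 23 alternatives and 19 lost it only within replicates 1 and 2; for AI-8-45 minus AI-7-54, 21 of the 30 lost it only there, where AI-7-54 has 1 array whose spread is assumed to equal that of the other groups, and 0 kept it in all. No called gene changed direction. Leaving out 1 array gave 34 to 35 calls (median -0.54 to -0.46) for AI-9-54 minus AI-7-54, 23 to 32 (median -0.40 to -0.36) for AI-8-45 minus AI-7-54, and 0 to 3 (median -0.13 to -0.09) for AI-9-54 minus AI-8-45. The counts of other ribosome biogenesis genes called lower were then 66 to 91 for AI-9-54 minus AI-7-54 (0 to 1 higher), 35 to 62 for AI-8-45 minus AI-7-54 and 0 to 3 for AI-9-54 minus AI-8-45. Over all genes, 1126 to 1714 were then lower for AI-9-54 minus AI-7-54 (1616 in the reported fit). For AI-8-45 minus AI-7-54 it was 358 to 771 (782 in the reported fit), and for AI-9-54 minus AI-8-45 49 to 111 (133 in the reported fit). Within replicates 1 and 2 the calls were 13 (median -0.43) for AI-9-54 minus AI-7-54, 0 (median -0.31) for AI-8-45 minus AI-7-54 and 0 between AI-9-54 and AI-8-45; of the other biogenesis genes the same numbers were lower (13, 0 and 0 in these comparisons). Within replicates 3 and 4 the medians were -0.55 for AI-9-54 minus AI-7-54, -0.43 for AI-8-45 minus AI-7-54 and -0.07 for AI-9-54 minus AI-8-45, with 0 calls between AI-9-54 and AI-8-45, and 32 other biogenesis genes were lower for AI-8-45 minus AI-7-54 and 0 between AI-9-54 and AI-8-45. The cause of the difference between the replicate sets was not tested.

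Between AI-9-54 and AI-8-45 the count of 3 became 1 with arrays centred on their medians, 5 among genes above the median level, 7 with the replicate set in the model and 1 with only the 2 groups; the count of 4 other biogenesis genes became 1, 7, 7 and 1 under the same settings and 2 with the mean over probe sets. Some of these genes were called higher under a few settings, 1 with an intensity trend for AI-8-45 minus AI-7-54, and for AI-9-54 minus AI-7-54 2 among genes above the median level, 1 with array weights and 1 with the replicate set. The median of all genes moved by at most 0.01 under either scaling. A total of 36 values changed sign, none of a called gene and none larger than 0.15. For AI-8-45 minus AI-7-54 these were Npm1 at -0.08 with the mean over probe sets and -0.03 within replicates 3 and 4, Ppan at 0.02 within replicates 3 and 4, and Npm1 (0.00 to 0.06) and Taf1d (-0.06 to 0.00) with 1 array left out. For AI-9-54 minus AI-7-54 they were Npm1 at -0.15 with the mean over probe sets (adjusted p 0.0367) and -0.06 within replicates 3 and 4, Ubtf at -0.01 with centred arrays and -0.04 within replicates 1 and 2, and Npm1 (0.00 to 0.06) and Ubtf (-0.03 to 0.04) with 1 array left out. For AI-9-54 minus AI-8-45 they were Polr1c at -0.01 with quantile normalization and -0.02 within replicates 1 and 2, Npm1 at 0.00 with centred arrays, 0.02 with quantile normalization and 0.03 within replicates 1 and 2, Nop14 at -0.01 with quantile normalization, and within replicates 3 and 4 Noc4l at 0.01, Noc3l at 0.00 and Nop16 at 0.08; with 1 array left out they were Polr1c (-0.03 to 0.04), Npm1 (-0.02 to 0.02), Nop14 (-0.01 to 0.03), Noc2l (-0.04 to 0.01) and Wdr43 (-0.07 to 0.01).

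Arrays with the same replicate number shared deviations at correlations of -0.02 to 0.45 (median 0.13), so the numbers were not taken to pair the samples. With the replicate number as a block, 35 genes were lower for AI-9-54 minus AI-7-54 (median -0.52), 32 for AI-8-45 minus AI-7-54 (median -0.40) and 2 for AI-9-54 minus AI-8-45 (median -0.11), and the other biogenesis genes gave 85, 63 and 4. All genes called lower were then 1658, 830 and 255 in the same order, against 1616, 782 and 133 in the reported fit.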
